A study of Mus musculus with 9 samples.

Results

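The genes described here are the mouse genes whose symbol begins with Kcn, the prefix for potassium channel subunits and their partners. They were taken by their symbol alone. Of 41345 probe sets on the array, 97 carried a single symbol of this kind, and they stood for 90 genes among 22180 genes tested. Where a gene had several probe sets, as 7 of the 90 did, the probe set with the highest mean over the 9 arrays was used. The 90 genes fell into 19 subfamilies by the letter after Kcn, of which 13 had at least 3 measured genes, and 88 of them code for protein while Kcnd3os and Kcnq1ot1 are long non-coding RNAs.

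The tissue was the anterior cingulate cortex, a frontal midline area, of C57BL/6J mice, a common inbred strain, with 3 groups of 3 arrays that the titles call biological replicates. In the ketamine (KT) group, ketamine, a blocker of NMDA-type glutamate receptors, was injected into the peritoneum at 3 mg/kg at ZT5, where ZT counts hours from lights on. In the sleep deprivation (SD) group, mice were kept awake for 12 h, from ZT0 to ZT12, in a cage with a slowly turning bar, with no injection named in the labels. In the saline group, mice received the same kind of injection at ZT5 with saline alone. Tissue was taken at ZT13 in all groups, 8 h after an injection and 1 h after the end of the deprivation, so no earlier time was measured, and no group was both uninjected and left to sleep. The series compared ketamine and sleep deprivation, which share a fast antidepressant action in people, with saline.

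Potassium channels let potassium ions leave or enter the cell along their gradient, and they set the resting potential, end the action potential and space successive spikes. Pores are built from several subunits, with voltage-gated members (Kcna, Kcnb, Kcnc, Kcnd, Kcnh, Kcnq), calcium- or sodium-activated members (Kcnma, Kcnn, Kcnt), inward rectifiers (Kcnj) and tandem-pore-domain leak channels (Kcnk). Modifier subunits (Kcnf, Kcng, Kcns, Kcnv) form no working channel alone and join Kcnb subunits, and auxiliary subunits (Kcnab, Kcne, Kcnip, Kcnmb) bind pores and change their traffic or gating. In fruit flies, mutants of the voltage-gated channel gene Shaker and of its auxiliary subunit Hyperkinetic sleep little. In mice, loss of Kcna2 reduces sleep, Kcnn2 shapes the oscillations of sleep in the thalamus, and Kcnma1 sets the daily rhythm of firing in the brain's clock.

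Values are probe set intensities on a linear scale as deposited. Differences are between group means of log2(intensity + 16), given ± the standard error of a limma fit across all genes with 3 arrays per group. Adding 16 shrinks the differences of dim genes. An intensity reflects the probes as well as the transcript, so levels are compared between groups and not between genes. In whole tissue, fewer cells of a type and less RNA per cell cannot be told apart. The arrays had median intensities of 97.7 to 106.2 and correlated across genes at 0.986 to 0.995 within groups and at 0.976 to 0.995 between them on the log2 scale. Summed neuronal markers (8 genes) lay at 22635 to 24333 after ketamine, at 22031 to 22979 after sleep deprivation and at 21964 to 23242 after saline. Bright genes such as Snap25, with a mean of 8813 after saline, weigh most in this sum. Singly, 4 were higher and 4 lower after ketamine than after saline, from −0.27 for Pvalb to 0.23 for Sst on the log2 scale. After sleep deprivation 2 were higher and 6 lower, from −0.21 for Gad1 to 0.08 for Sst. Endothelial markers (5 genes) summed to 965 to 1173 after ketamine, to 1239 to 1423 after sleep deprivation and to 1087 to 1180 after saline, so the SD arrays stood above both other groups. Oligodendrocyte markers (5 genes) varied more within groups, from 2499 to 4413 after ketamine, from 2543 to 3230 after sleep deprivation and from 2856 to 3515 after saline. Choroid plexus markers (7 genes) summed to 799 to 1109 after ketamine and to 602 to 1099 after sleep deprivation, against 2271, 9607 and 731 in the 3 saline arrays. Cortical layer markers (5 genes) summed to 2662 to 3151 after ketamine, to 2839 to 3337 after sleep deprivation and to 2835 to 2939 after saline. Of these 5, 3 had SD arrays that did not overlap the saline arrays (7.11% of all genes), with differences of −0.34 ± 0.13 for Rorb, 0.27 ± 0.12 for Tle4 and 0.24 ± 0.13 for Foxp2 on the log2 scale (limma, unadjusted p = 0.0183, 0.0466 and 0.0814). The part of these cell types and layers in the results below was not tested.

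No potassium channel gene differed between groups at an adjusted p under 0.05 in limma with Benjamini-Hochberg adjustment over all genes. This held for 0 of 90 genes in ketamine against saline, in sleep deprivation against saline and in ketamine against sleep deprivation, where the share over all genes was 0% in each comparison. The differences were small, as they were over all genes. They lay within 0.2 on the log2 scale for 87 of 90 genes (96.7%) in ketamine against saline, where 88.8% of all genes did so. In sleep deprivation against saline this held for 82 (91.1%), against 91.9% of all genes. In ketamine against sleep deprivation it held for 75 (83.3%), against 81.5% of all genes. The 95% interval of the difference lay inside ± 0.5 on that scale, which is 1.41-fold, for 87 of the 90 genes in ketamine against saline. The count was 88 in sleep deprivation against saline and 84 in ketamine against sleep deprivation. The intervals were not counted over all genes. The genes whose interval reached further were Kcnh5, Kcnab3 and Kcng4 in ketamine against saline, Kcnh5 and Kcnd3os in sleep deprivation against saline, and Kcnab3, Kcnc1, Kcnd3os, Kcng4, Kcnj15 and Kcnq1 in ketamine against sleep deprivation.

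After ketamine, 46 potassium channel genes were higher and 44 lower than after saline, with a median difference of 0.002 against −0.015 over all genes. With quantile normalization of the arrays the split was 57 higher and 33 lower. After sleep deprivation, 41 were higher and 49 lower than after saline, with a median of −0.015 against −0.009 over all genes. Between the conditions themselves, 47 were higher and 43 lower after ketamine than after sleep deprivation, and 61 and 29 with quantile normalization. At an unadjusted limma p under 0.05, ketamine against saline gave 2 genes, both lower, or 2.22% of the 90 where the share over all genes was 4.57% (2.21% higher, 2.35% lower). Sleep deprivation against saline gave 7 genes, 2 higher and 5 lower, or 7.78% where the share over all genes was 3.52% (1.8% higher, 1.72% lower). Ketamine against sleep deprivation gave 7 genes, 4 higher and 3 lower, or 7.78% where the share over all genes was 9.48% (5.1% higher, 4.38% lower). These counts moved with single arrays: the 2 genes of ketamine against saline were 0 without KT array 3, 1 without saline array 2, 6 without KT array 1, and 3 without SD array 3 or saline array 3. The 7 of sleep deprivation against saline were 2 without saline array 2, 4 without SD array 1 or SD array 2, and 11 without SD array 3. Those of ketamine against sleep deprivation were 2 without KT array 3, 3 without SD array 1, 12 without KT array 1 and 19 without SD array 3.

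Counting genes whose 3 arrays in one group all lay beyond the 3 of the other gave 4 genes in ketamine against saline, all lower, or 4.44% where 14.4% of all genes did so (6.48% higher, 7.89% lower). The 4 were Kcnh5, Kcnab3, Kcnt2 and Kcnip4, and with quantile normalization the count was 9. Sleep deprivation against saline separated 11 genes, or 12.2% where the share over all genes was 7.11% (3.57% higher, 3.54% lower). Kcnip3, Kcna6, Kcnj12 and Kcnt1 were the higher ones, while Kcnip4, Kcnh5, Kcng2, Kcnj3, Kcnd3os, Kcnh8 and Kcnq5 were lower. Ketamine against sleep deprivation separated 12 genes, or 13.3% where the share over all genes was 10.1% (4.53% higher, 5.54% lower), with Kcng2, Kcnh8, Kcnip4, Kcnj14, Kcnj5, Kcnn1 and Kcnq1 higher after ketamine and Kcnab3, Kcnc2, Kcnip3, Kcnj6 and Kcnt1 lower. The comparisons share arrays, so a gene may appear in several of them because of 1 group.

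**Figure D1:**
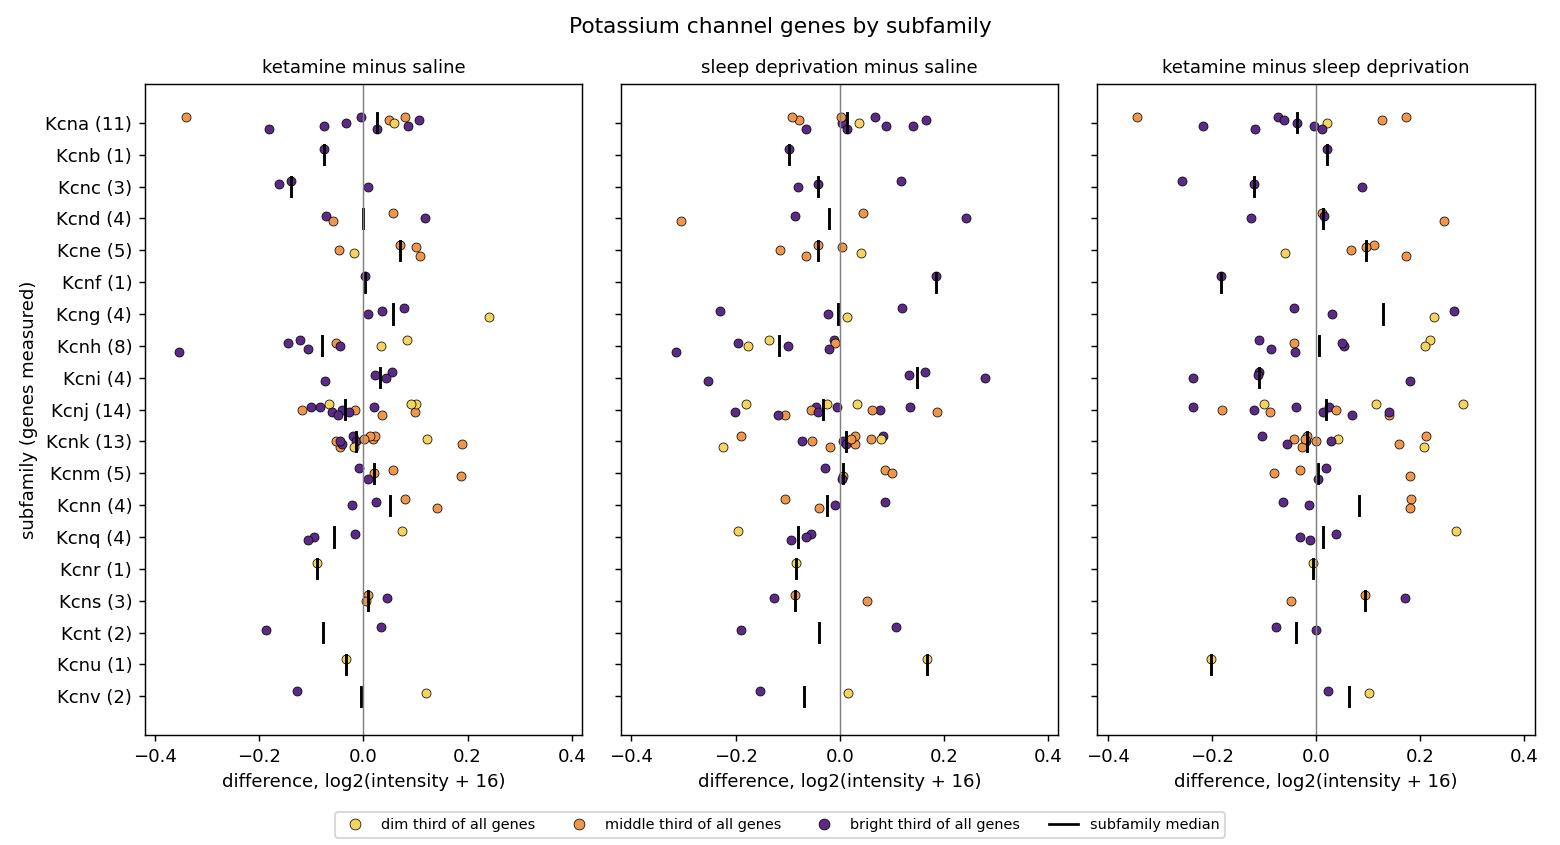
Difference between group means of log2(intensity + 16) for each of the 90 potassium channel genes (points, n = 3 arrays per group) by subfamily, with the number of measured genes in brackets, the class of mean intensity (dim, middle or bright, of equal size over all genes) in colour and the subfamily median as a bar. Most points lie within 0.2 of zero, and in sleep deprivation minus saline all 8 Kcnh genes and all 4 genes under Kcnq (3 channel genes and the non-coding Kcnq1ot1) lie left of zero.

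Voltage-gated pore subunits were the largest group, with 26 measured genes. After sleep deprivation 8 of them were higher and 18 lower than after saline, with a median difference of −0.06 on the log2 scale. This split was the same with quantile normalization and with arrays centred on their medians. The 26 include the 8 Kcnh genes and the Kcnq channel genes described below, and each of those was lower. The 8 higher genes thus all came from the other families, and the counts given below for Kcnh and Kcnq are not separate from this one. Over all genes, 11847 of 22180 were lower. The median of the group relative to the saline mean was −0.023, −0.073 and −0.056 in the SD arrays. In the saline arrays it was −0.056, −0.008 and 0.051, so SD array 1 lay above saline array 1. After ketamine 11 were higher and 15 lower than after saline, with a median of −0.04, and 12 higher and 14 lower with quantile normalization. No gene among them passed the adjusted threshold.

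The Kcnh genes encode the ether-a-go-go family of voltage-gated channels. All 8 measured members had lower means after sleep deprivation than after saline, with a median difference of −0.12 on the log2 scale. All 8 were lower also with quantile normalization, with centred arrays and with offsets of 1 and 64. Over all genes, 11847 of 22180 were lower. The median of the family relative to the saline mean was −0.026, −0.156 and −0.119 in the SD arrays. In the saline arrays it was −0.099, 0.027 and 0.051, so SD array 1 lay above saline array 1. After ketamine 2 were higher and 6 lower than after saline, with a median of −0.08, and 1 and 7 with quantile normalization. Kcnh5, which encodes the EAG2 channel, carried the largest difference of the family. Its intensity was 1089.6, 888 and 763 in the KT arrays and 939.7, 917 and 934 in the SD arrays, against 1148, 1227 and 1109.6 in the saline arrays. Every KT and SD array thus lay below every saline array, the KT arrays spread widely and the SD arrays lay close together. The difference was −0.35 ± 0.12 for ketamine against saline (limma, unadjusted p = 0.0088, adjusted p = 0.87). For sleep deprivation against saline it was −0.31 ± 0.12 (limma, unadjusted p = 0.0173, adjusted p = 0.9997). The saline group is the same in both, so these are not separate observations. With estimated array weights, Kcnh5 in ketamine against saline was the one potassium channel gene to reach an adjusted p under 0.05 (0.0188 in limma, difference −0.35), in a fit that gave KT array 2 a weight of 7.92 and called 1439 of all genes.

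Of the other Kcnh genes, Kcnh7, which encodes a channel of the ERG type, had intensities of 1656, 1515 and 1376 after ketamine, 1538, 1445 and 1398 after sleep deprivation and 1509.8, 1757 and 1764 after saline. The difference from saline was −0.14 ± 0.10 on the log2 scale after ketamine and −0.19 ± 0.10 after sleep deprivation, and the groups overlapped. Kcnh8, of the ELK type, was dim, with 77.6, 88.1 and 89.5 after ketamine, 71.2, 68.4 and 74.3 after sleep deprivation and 82.0, 79.5 and 86.4 after saline. Its SD arrays lay below all other arrays, with a difference of 0.21 ± 0.09 for ketamine against sleep deprivation (limma, unadjusted p = 0.0348, adjusted p = 0.5). Kcnh3, another channel of the ELK type, averaged 1385 ± 38.8 after ketamine, 1334 ± 63.4 after sleep deprivation and 1434 ± 156 after saline (SD, n = 3 each).

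The Kcnq genes encode Kv7 channels, and Kcnq3 and Kcnq5 contribute to the M-current, a slow current that muscarinic receptors shut. The genes measured under this letter were 3 channel genes and the non-coding Kcnq1ot1. All 4 had lower means after sleep deprivation than after saline, with a median of −0.08, under each scaling tried. Their median relative to the saline mean was −0.044, −0.095 and −0.104 in the SD arrays. In the saline arrays it was −0.053, 0.031 and 0.021, so SD array 1 lay above saline array 1. Kcnq5 had intensities of 1441, 1239.9 and 1274 after ketamine, 1381, 1307 and 1295 after sleep deprivation and 1398, 1453 and 1404 after saline. Its SD arrays lay just below the saline arrays, with a difference of −0.09 ± 0.09 on the log2 scale, about the size of its standard error. Kcnq3 averaged 1220.5 ± 75.2 after ketamine, 1245 ± 27.2 after sleep deprivation and 1304 ± 68.2 after saline (SD, n = 3 each), and its groups overlapped. Kcnq1, better known from heart and epithelia, was dim, with 72.6, 78.5 and 87.3 after ketamine, 52.1, 66.2 and 72.1 after sleep deprivation and 79.2, 66.8 and 78.2 after saline. Its KT arrays lay above its SD arrays, by 0.27 ± 0.11 on the log2 scale (limma, unadjusted p = 0.0314, adjusted p = 0.491).

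The Kcnd genes encode Kv4 channels, which carry the fast A-type current of dendrites and are partners of the Kcnip proteins. Kcnd3 had intensities of 422, 418 and 440.5 after ketamine and 494, 518 and 397 after sleep deprivation, against 379, 376 and 422 after saline. The SD arrays 1 and 2 were the highest and SD array 3 lay among the saline arrays, with a difference from saline of 0.24 ± 0.11 on the log2 scale (limma, unadjusted p = 0.0393, adjusted p = 0.9997). Kcnd2, another Kv4 gene, averaged 1428 ± 66.7 after ketamine, 1413 ± 65.9 after sleep deprivation and 1502 ± 77.9 after saline (SD, n = 3 each), without separation of the groups. Kcnd1 averaged 135 ± 2.51 after ketamine, 134 ± 9.01 after sleep deprivation and 129.9 ± 8.72 after saline.

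Kcnd3os is a non-coding RNA that RefSeq places on the strand opposite to Kcnd3, with starts 1065 bases apart. Whether the probe sets tell the strands apart is not given in the sources used here. Its intensity was 155, 143 and 212 after ketamine and 116, 140.3 and 163 after sleep deprivation, against 176, 173 and 176 after saline. The saline arrays lay close together and above all SD arrays, while the KT arrays spread across both, and sleep deprivation differed from saline by −0.30 ± 0.14 on the log2 scale (limma, unadjusted p = 0.0434, adjusted p = 0.9997). The mean of Kcnd3 was higher and that of its antisense partner lower in the SD group than in the saline group, each with an unadjusted p near 0.05. The sequences before both starts are shown because the starts lie close together on opposite strands: they are the 250 bases upstream of each RefSeq start in GRCm38.p6, 5′ to 3′ on the gene's strand, at chr3:105451640-105451889 (plus strand) and chr3:105452956-105453205 (minus strand). Neither held any of the motifs searched below, and so no letters are in capitals.
Kcnd3: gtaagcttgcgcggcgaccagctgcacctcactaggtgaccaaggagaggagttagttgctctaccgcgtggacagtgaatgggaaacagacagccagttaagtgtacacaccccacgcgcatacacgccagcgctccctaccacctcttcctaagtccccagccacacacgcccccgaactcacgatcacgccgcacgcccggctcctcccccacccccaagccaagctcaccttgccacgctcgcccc
Kcnd3os: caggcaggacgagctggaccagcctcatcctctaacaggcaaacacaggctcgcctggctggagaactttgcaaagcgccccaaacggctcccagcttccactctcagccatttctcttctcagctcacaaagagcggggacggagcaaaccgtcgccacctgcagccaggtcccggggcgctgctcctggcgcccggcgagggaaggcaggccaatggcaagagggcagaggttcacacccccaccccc

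Kcnc genes encode Kv3 channels, which let fast-spiking interneurons fire at high rates. Kcnc1 had intensities of 326, 305 and 229.5 after ketamine, 343, 363 and 322 after sleep deprivation and 283, 326 and 335 after saline. Ketamine differed from sleep deprivation by −0.26 ± 0.12 on the log2 scale, with overlap of the groups. Kcnc2 had 501, 488 and 467 after ketamine, 554, 527 and 505 after sleep deprivation and 499, 576 and 561 after saline. Its KT arrays lay below its SD arrays, with a difference of −0.12 ± 0.09, and overlapped the saline arrays. Kcnc4 averaged 743 ± 23.3 after ketamine, 697 ± 28.4 after sleep deprivation and 738 ± 9.64 after saline (SD, n = 3 each). The marker of fast-spiking interneurons, Pvalb, averaged 169 ± 33.8 after ketamine, 196 ± 18.8 after sleep deprivation and 205 ± 23.7 after saline. Its part in the Kcnc values was not tested.

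Kcna genes encode Kv1 channels of axons and are the mouse relatives of Shaker. Kcna2 averaged 1055 ± 98.8 after ketamine, 1081 ± 64.2 after sleep deprivation and 1078 ± 48.8 after saline (SD, n = 3 each). Kcna1 averaged 732 ± 107 after ketamine, 767 ± 61.2 after sleep deprivation and 730.0 ± 43.6 after saline, and neither gene's groups separated. Kcna6 had intensities of 340.1, 399 and 378 after sleep deprivation against 335, 323 and 331 after saline, which did not overlap, but a dimmer probe set of the gene gave a difference of −0.10 where the one used gave 0.17. Kcna4 had 305, 252 and 224 after ketamine against 294, 295 and 297 after saline, with overlap and a difference of −0.18 ± 0.12 on the log2 scale. A Kcna4 probe set of similar brightness gave −0.20 there, while in sleep deprivation against saline the probe sets had opposite signs, −0.06 and 0.07. Kcnb2, the measured pore partner of the modifier subunits, averaged 545 ± 43.0 after ketamine, 539 ± 72.4 after sleep deprivation and 575 ± 33.0 after saline.

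Among the 10 modifier subunits, 9 were higher and 1 lower after ketamine than after saline, with a median difference of 0.02 on the log2 scale. This split held also with quantile normalization, where the median was 0.08. Without that normalization, 10064 of all 22180 genes were higher. The differences of the 10 then ran from −0.13 for Kcnv1, the lower one, to 0.24 for Kcng4. Some of the 9 lay near zero, such as Kcnf1 at 0.002 and Kcns3 at 0.004. The median of the 10 relative to the saline mean was 0.034, −0.030 and 0.077 in the KT arrays. In the saline arrays it was −0.026, −0.027 and 0.043, so KT array 2 lay below all of these. Of the 10, 0 had KT arrays that did not overlap the saline arrays, where 14.4% of all genes did so. After sleep deprivation 5 were higher and 5 lower. Kcng2, which encodes a subunit that is silent alone, had intensities of 309, 303 and 336 after ketamine and 251, 267 and 263 after sleep deprivation, against 292, 336 and 298 after saline. The SD arrays lay below all arrays of the other groups, and the KT and saline arrays overlapped. Kcng2 differed by −0.23 ± 0.09 between sleep deprivation and saline (limma, unadjusted p = 0.0257, adjusted p = 0.9997). Between ketamine and sleep deprivation the difference was 0.26 ± 0.09 (limma, unadjusted p = 0.0124, adjusted p = 0.451).

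Kcnf1 had 578, 515 and 514 after ketamine, 601, 679.9 and 554 after sleep deprivation and 558, 492 and 555 after saline, with overlap. Kcnv1, whose product holds back Kcnb channels, averaged 846 ± 92.9 after ketamine, 829.8 ± 61.9 after sleep deprivation and 924 ± 73.0 after saline (SD, n = 3 each). Kcns2 averaged 298 ± 12.8 after ketamine, 263 ± 22.0 after sleep deprivation and 288 ± 2.15 after saline. Kcng4 was dim, with 64.8, 75.2 and 90.4 after ketamine against 60.5, 53.5 and 73.3 after saline, and its difference of 0.24 ± 0.14, the highest of the 90 genes in that comparison, came with overlapping groups. For Kcng1 and Kcng3 the differences from saline ranged from −0.02 to 0.12.

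**Figure D2:**
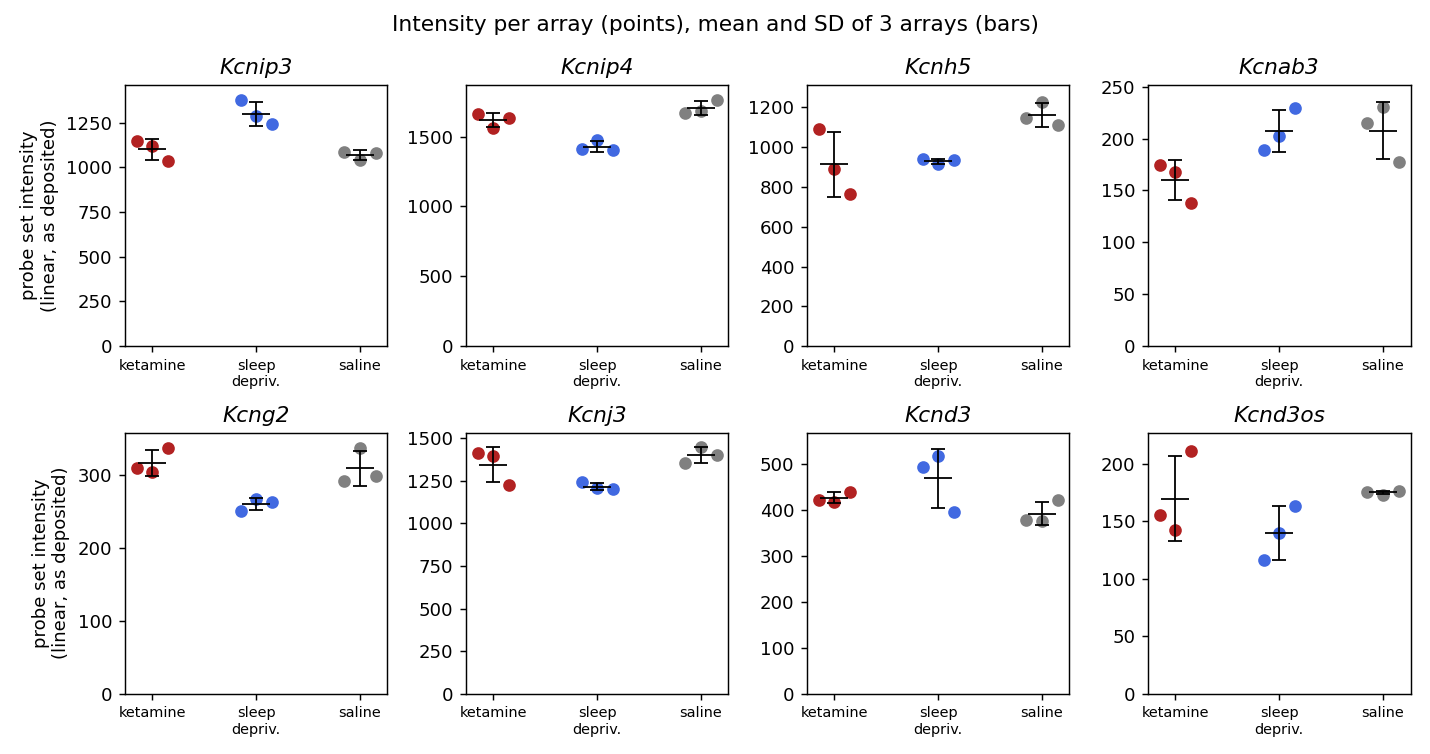
Linear probe set intensity of Kcnip3, Kcnip4, Kcnh5, Kcnab3, Kcng2, Kcnj3, Kcnd3 and Kcnd3os on each array (points), with the mean and SD of 3 arrays per group (bars), from an axis that starts at 0. The SD arrays of Kcnip3 lie above, and those of Kcnip4 and Kcng2 below, the arrays of both other groups, and both the KT and SD arrays of Kcnh5 lie below the saline arrays.

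The 16 auxiliary subunits held Kcnip3 and Kcnip4, the potassium channel genes with the smallest unadjusted p in sleep deprivation against saline. After sleep deprivation 12 were higher and 4 lower than after saline, with a median of 0.01, and 11 and 5 with quantile normalization. The Kcnip genes encode KChIP proteins, calcium sensors that bind Kv4 channels, bring them to the membrane and slow their inactivation. Kcnip3 also codes for the repressor known as DREAM or calsenilin, which acts on the prodynorphin gene. Its intensity was 1375, 1285 and 1242 in the SD arrays and 1149, 1121 and 1037 in the KT arrays, against 1089, 1039 and 1078 in the saline arrays. Every SD array lay above every other array, and the KT and saline arrays overlapped. Sleep deprivation differed from saline by 0.28 ± 0.09 on the log2 scale, the highest of the 90 genes (limma, unadjusted p = 0.00738, adjusted p = 0.9997). For ketamine against sleep deprivation it was −0.24 ± 0.09 (limma, unadjusted p = 0.0191, adjusted p = 0.476).

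Kcnip4 had the opposite order. Its intensity was 1409, 1473 and 1403 in the SD arrays and 1662, 1565 and 1634 in the KT arrays, against 1672, 1682 and 1762 in the saline arrays. The 3 groups did not overlap, with sleep deprivation lowest, ketamine between and saline highest. The difference from saline was −0.25 ± 0.08 after sleep deprivation (limma, unadjusted p = 0.01, adjusted p = 0.9997) and −0.07 ± 0.08 after ketamine. Kcnip1 averaged 283 ± 24.7 after ketamine, 307 ± 39.1 after sleep deprivation and 272 ± 14.8 after saline (SD, n = 3 each). Kcnip2 averaged 479 ± 19.0 after ketamine, 521 ± 64.9 after sleep deprivation and 472 ± 34.8 after saline. After sleep deprivation Kcnip1, Kcnip2 and Kcnip3 were thus higher than after saline in their means, and Kcnip4 lower, with a family median of 0.15 that was 0.14 with quantile normalization.

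The sequences upstream of Kcnip3, Kcnip4 and Kcnh5 are shown as those of the genes with the smallest unadjusted p in the comparisons with saline. Each is the 250 bases before a RefSeq start in GRCm38.p6, 5′ to 3′ on the gene's strand, which is the minus strand for all of them. They lie at chr2:127522095-127522344 for Kcnip3, at chr5:49285660-49285909 for Kcnip4 and at chr12:75177333-75177582 for Kcnh5. Kcnip3 has 3 annotated starts and Kcnip4 has 2, and the outermost is shown. Capitals mark a match to the AP-1 motif (its reverse complement) in Kcnip3, 122 bases before the start, and to the GC box in Kcnh5, 70 bases before the start.
Kcnip3: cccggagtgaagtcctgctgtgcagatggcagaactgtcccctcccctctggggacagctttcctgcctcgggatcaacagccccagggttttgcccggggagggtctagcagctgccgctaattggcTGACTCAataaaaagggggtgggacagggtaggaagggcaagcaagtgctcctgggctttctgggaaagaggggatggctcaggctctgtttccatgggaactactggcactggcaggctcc
Kcnip4: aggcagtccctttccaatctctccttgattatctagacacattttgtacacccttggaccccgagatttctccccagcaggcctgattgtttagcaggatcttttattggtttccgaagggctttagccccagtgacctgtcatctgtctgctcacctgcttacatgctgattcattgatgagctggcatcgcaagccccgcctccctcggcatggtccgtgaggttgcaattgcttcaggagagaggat
Kcnh5: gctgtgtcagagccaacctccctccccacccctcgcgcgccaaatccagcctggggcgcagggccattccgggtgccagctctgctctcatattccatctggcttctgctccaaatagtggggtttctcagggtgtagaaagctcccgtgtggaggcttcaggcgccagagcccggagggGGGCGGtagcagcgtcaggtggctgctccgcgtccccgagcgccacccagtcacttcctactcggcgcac

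Kcnab genes encode the cytoplasmic beta subunits of Kv1 channels, relatives of the fly's Hyperkinetic. Kcnab3 had intensities of 174, 168 and 138 after ketamine and 189, 203 and 229.6 after sleep deprivation, against 215, 230.5 and 177 after saline. The KT arrays lay below all other arrays, and the SD and saline arrays overlapped. The difference was −0.34 ± 0.12 for ketamine against saline (limma, unadjusted p = 0.0127, adjusted p = 0.87). For ketamine against sleep deprivation it was −0.34 ± 0.12 (limma, unadjusted p = 0.0122, adjusted p = 0.451). A dimmer Kcnab3 probe set, with a mean intensity of 83.8, gave −0.06 for ketamine against saline and 0.03 for ketamine against sleep deprivation, so the size did not carry over to it. Kcnab2 averaged 1083 ± 66.8 after ketamine, 1073 ± 13.7 after sleep deprivation and 1063 ± 36.4 after saline (SD, n = 3 each). Kcnab1 averaged 451 ± 56.4 after ketamine, 527 ± 66.5 after sleep deprivation and 474 ± 11.8 after saline, with overlap between each pair of groups.

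The Kcnmb genes encode beta subunits of the large-conductance calcium-activated channel, of which Kcnmb4 is the main neuronal one, and Kcnmb4 averaged 494 ± 26.2 after ketamine, 493 ± 29.0 after sleep deprivation and 491 ± 24.2 after saline (SD, n = 3 each). Kcnmb3 had 84.0, 107 and 110.1 after ketamine, 83.8, 83.2 and 91.1 after sleep deprivation and 81.1, 81.5 and 94.5 after saline. Of the 5 Kcne genes, Kcne4 had 92.7, 83.2 and 95.5 after ketamine, 83.6, 75.6 and 75.9 after sleep deprivation and 84.0, 82.1 and 81.7 after saline, a difference of 0.11 ± 0.09 between ketamine and saline. Kcne2, a subunit of the choroid plexus, had 109, 124 and 123 after ketamine, 100.1, 106 and 133 after sleep deprivation and 127, 127 and 115 after saline. The choroid plexus marker Ttr was at 207, 467 and 138 after ketamine, 89.5, 104 and 428 after sleep deprivation and 1624, 8428 and 109.5 in saline arrays 1, 2 and 3, and its part in the Kcne2 values was not tested.

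The 14 inward rectifiers (Kcnj) let potassium pass more easily into the cell and hold the resting potential. After ketamine 5 were higher and 9 lower than after saline, with a median of −0.03, but 8 were higher and 6 lower with quantile normalization. After sleep deprivation 5 were higher and 9 lower, with a median of −0.03, and 6 and 8 with quantile normalization. Kcnj3, Kcnj6, Kcnj9 and Kcnj5 encode the GIRK channels, which G proteins open below inhibitory receptors. Kcnj3 had intensities of 1239, 1205 and 1198 after sleep deprivation and 1412, 1391 and 1226 after ketamine, against 1351, 1445 and 1399 after saline. The SD arrays lay below all saline arrays, and KT array 3 lay among the SD arrays. Sleep deprivation differed from saline by −0.20 ± 0.09 (limma, unadjusted p = 0.0433, adjusted p = 0.9997), and a dimmer Kcnj3 probe set gave −0.13.

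Kcnj6 had intensities of 752, 761 and 679 after ketamine and 908, 923 and 765 after sleep deprivation, with 711, 828 and 819 after saline. The KT arrays lay below the SD arrays, and the saline arrays overlapped both, with a difference of −0.24 ± 0.10 for ketamine against sleep deprivation (limma, unadjusted p = 0.0408, adjusted p = 0.518). Kcnj9 averaged 639 ± 37.4 after ketamine, 634 ± 51.1 after sleep deprivation and 652 ± 36.6 after saline (SD, n = 3 each). Kcnj5 was dim and averaged 85.4 ± 4.11 after ketamine, 77.5 ± 2.05 after sleep deprivation and 79.2 ± 7.58 after saline. Of the 4 GIRK genes, 3 were higher and 1 lower after ketamine than after sleep deprivation, also with quantile normalization. The higher ones were Kcnj3 at 0.14, Kcnj5 at 0.12 and Kcnj9 at 0.01. The dimmer Kcnj3 probe set had the opposite sign there, −0.11.

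Kcnj10 encodes the Kir channel with which astrocytes take up potassium, and Kcnj16 its partner. Kcnj10 averaged 651 ± 116 after ketamine, 634 ± 46.2 after sleep deprivation and 637 ± 59.1 after saline (SD, n = 3 each). Kcnj16 averaged 240.4 ± 30.3 after ketamine, 246 ± 12.5 after sleep deprivation and 254 ± 13.1 after saline. Summed astrocyte markers (6 genes) lay between 6482 and 7284 after ketamine, between 6674 and 7575 after sleep deprivation and between 7013 and 7529 after saline, and their part in these values was not tested. Kcnj11 and Kcnj8, the pores of the ATP-sensitive channels that link metabolism to excitability, had overlapping groups. Kcnj11 averaged 272 ± 17.6 after ketamine, 296 ± 18.1 after sleep deprivation and 280.3 ± 20.0 after saline, and Kcnj8 averaged 109.8 ± 4.37 after ketamine, 106 ± 4.05 after sleep deprivation and 111 ± 8.39 after saline. The dim Kcnj15 had 57.3, 70.3 and 86.5 after ketamine, 52.9, 51.5 and 61.6 after sleep deprivation and 64.2, 60.5 and 69.7 after saline. Ketamine differed from sleep deprivation by 0.28 ± 0.12 there, the highest of the 90 genes in that comparison (limma, unadjusted p = 0.0333, adjusted p = 0.493), although the groups overlapped.

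The 13 tandem-pore-domain (Kcnk) channels carry leak currents that are open at rest. None reached an unadjusted p under 0.05 in any of the comparisons, where the shares over all genes were 4.57% in ketamine against saline, 3.52% in sleep deprivation against saline and 9.48% in ketamine against sleep deprivation. After ketamine 6 were higher and 7 lower than after saline, with a median of −0.01, and 9 and 4 with quantile normalization. After sleep deprivation 8 were higher and 5 lower, with a median of 0.01, and 7 and 6 with quantile normalization. Kcnk1, which encodes TWIK-1 and is also present in glia, averaged 977 ± 126 after ketamine, 1054 ± 159.7 after sleep deprivation and 986 ± 13.9 after saline (SD, n = 3 each). Kcnk9, which encodes TASK-3, a channel that volatile anaesthetics open, averaged 548 ± 11.3 after ketamine, 540.1 ± 71.5 after sleep deprivation and 566 ± 10.4 after saline. Kcnk2, which encodes the stretch- and anaesthetic-sensitive TREK-1, averaged 205 ± 11.6 after ketamine, 206 ± 36.1 after sleep deprivation and 213 ± 4.72 after saline. Kcnk4, which encodes the mechanosensitive TRAAK, averaged 356 ± 2.6 after ketamine, 371 ± 13.7 after sleep deprivation and 368 ± 16.4 after saline. Kcnk13, the THIK-1 channel of microglia, had 124, 137 and 165 after ketamine, 119, 109.6 and 148 after sleep deprivation and 115, 122 and 129 after saline, with overlap. Summed microglial markers (6 genes) lay between 2011 and 2200 after ketamine, between 2183 and 2333 after sleep deprivation and between 2036 and 2246 after saline.

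Calcium- or sodium-activated pores, with the related Kcnu1 counted among them (8 genes), were split 4 higher and 4 lower after ketamine against saline, or 6 and 2 with quantile normalization, and 3 higher and 5 lower after sleep deprivation. Kcnma1, the pore of the large-conductance calcium-activated channel, averaged 2288 ± 143 after ketamine, 2254 ± 46.5 after sleep deprivation and 2304 ± 217 after saline (SD, n = 3 each). Kcnn2 and Kcnn3 encode small-conductance channels of the after-hyperpolarization, and Kcnn2 averaged 553 ± 20.1 after ketamine, 578 ± 26.8 after sleep deprivation and 545 ± 51.3 after saline. Kcnn3 averaged 262 ± 5.35 after ketamine, 268 ± 54.9 after sleep deprivation and 267 ± 18.4 after saline. Kcnn1 had 175, 170.4 and 180.1 after ketamine, 142, 154 and 161 after sleep deprivation and 162, 161 and 173 after saline. Its KT arrays lay above its SD arrays, by 0.18 ± 0.09 on the log2 scale. Kcnt2 and Kcnt1 encode the sodium-activated channels Slick and Slack. Kcnt2 had 904, 841 and 826 after ketamine and 945, 893 and 744 after sleep deprivation, against 959.8, 1042 and 935 after saline. All KT arrays were below all saline arrays, with a difference of −0.19 ± 0.10, and the SD arrays overlapped both. Kcnt1, whose arrays varied least of the 90 genes, had 553, 561 and 560.3 after ketamine and 609, 589.7 and 569.8 after sleep deprivation, against 537, 544 and 555 after saline, a difference from saline of 0.03 ± 0.08 after ketamine and 0.11 ± 0.08 after sleep deprivation.

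Of the remaining genes, Kcnq1ot1, the non-coding RNA of the imprinted Kcnq1 locus, averaged 386 ± 17.9 after ketamine, 376 ± 16.3 after sleep deprivation and 392 ± 40.7 after saline (SD, n = 3 each). Kcnrg, whose product is a regulator of potassium channels, was dim and averaged 65.8 ± 8.56 after ketamine, 65.8 ± 2.6 after sleep deprivation and 70.8 ± 6.36 after saline.

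Channels listed here as linked to sleep or to clock timing (13 measured genes) gave 0 genes at an unadjusted limma p under 0.05 in any of the comparisons. Over all genes the share was 4.57% in ketamine against saline, 3.52% in sleep deprivation against saline and 9.48% in ketamine against sleep deprivation. After ketamine 3 were higher and 10 lower than after saline, with a median of −0.03, but 9 were higher and 4 lower with quantile normalization. After sleep deprivation 6 were higher and 7 lower, with a median of −0.01. Between ketamine and sleep deprivation 6 were higher and 7 lower, and 10 and 3 with quantile normalization. The difference furthest from zero among them in sleep deprivation against saline was that of Kcnc1, 0.12 ± 0.12 on the log2 scale, about the size of its standard error.

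Genes that are no potassium channels but work with them were set beside these. Of 20 channel partners, which include scaffolds and auxiliary proteins, 3 were higher and 17 lower after ketamine than after saline, with a median of −0.06, and 7 and 13 with quantile normalization. After sleep deprivation 8 were higher and 12 lower. None passed the adjusted threshold. Dpp10, which encodes an auxiliary protein of Kv4 channels like the KChIPs, had 1769, 1639 and 1466 after sleep deprivation and 1791, 1830.3 and 1784 after ketamine, against 1984, 1969.7 and 1929 after saline. Its 3 groups did not overlap, in the same order as for Kcnip4, and sleep deprivation differed from saline by −0.27 ± 0.09 on the log2 scale. That was the lowest difference of the 20 partners in this comparison. Of the 20, 2 had SD arrays that did not overlap the saline arrays, where 7.11% of all genes did so. For the KT arrays the count was 4, all lower, where 14.4% of all genes did not overlap. Dpp6, also among the 20, differed by 0.02 ± 0.09 between sleep deprivation and saline, with overlap. Snx27, a sorting protein that binds GIRK channels, had 709, 631 and 619 after ketamine, 773, 808 and 705 after sleep deprivation and 754, 817 and 725 after saline. Of 8 measured pump and cotransporter genes, 3 were higher and 5 lower in each comparison with saline. Fxyd7, a regulator of the sodium pump, had 932, 1124 and 1121 after ketamine, 953, 890.1 and 804 after sleep deprivation and 856, 929.6 and 907 after saline.

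The potassium channel probe sets were bright. When all genes were split into 3 classes of equal size by mean intensity over the 9 arrays, with boundaries at 83.5 and 226.6, 14 of the 90 genes fell into the dim class, 28 into the middle class and 48 into the bright class, or 53.3% bright against 33.3% of all genes. Mean intensity ran from 33.7 for Kcnu1 to 2282 for Kcnma1, with a median of 270.3 against 129 over all genes. The spread between arrays of a group was smaller for brighter genes, with a median residual SD on the log2 scale of 0.152 in the dim, 0.134 in the middle and 0.108 in the bright class. For all genes these were 0.162, 0.131 and 0.111.

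The difference between ketamine and saline ran with intensity, in the potassium channel genes and in all genes. Dim potassium channel genes had a median difference of 0.07, middle ones of 0.02 and bright ones of −0.03, against 0.05, 0.00 and −0.07 in all genes. Of the bright potassium channel genes 17 of 48, or 35.4%, were higher after ketamine than after saline, where 20.6% of all bright genes were. With quantile normalization, 30 of the 48 bright potassium channel genes were higher, with a median of 0.04, and the median of all bright genes was −0.004. In ketamine against sleep deprivation the medians were 0.11, 0.05 and −0.02 for dim, middle and bright potassium channel genes and 0.07, 0.01 and −0.07 for all genes. In sleep deprivation against saline the potassium channel medians were −0.005, −0.01 and −0.02 for dim, middle and bright genes, against −0.02, −0.01 and 0.001 for all genes.

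**Figure D3:**
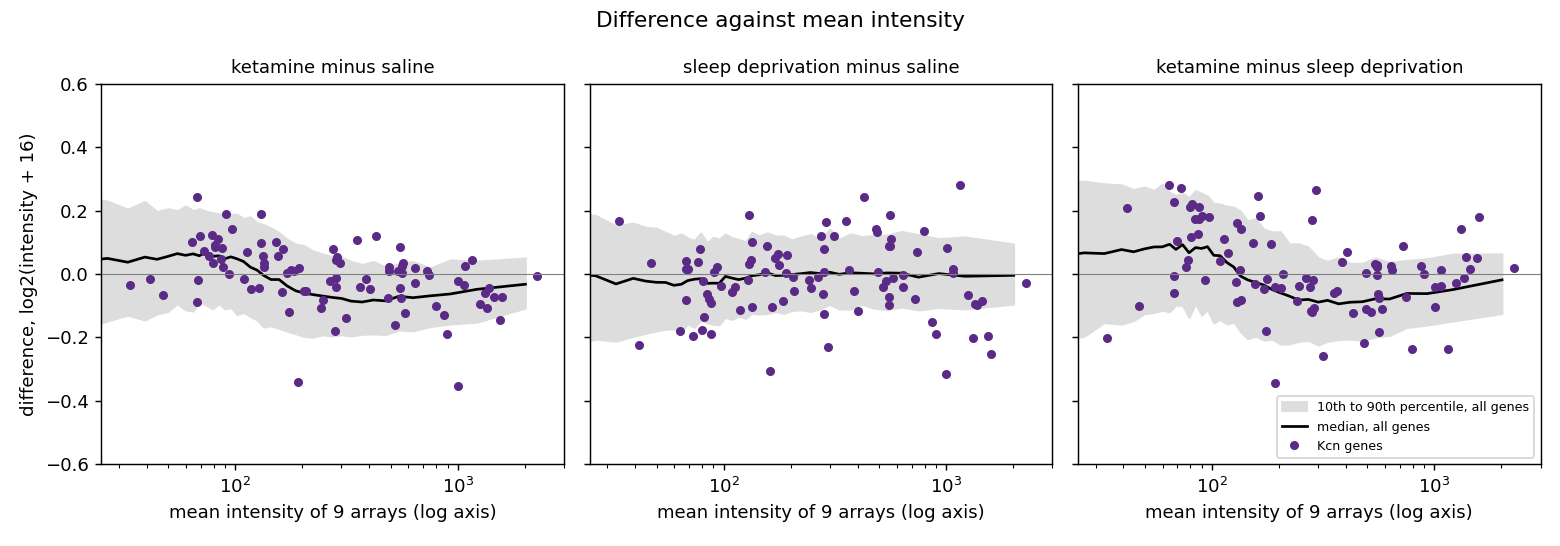
Difference of log2(intensity + 16) between groups against the mean linear intensity of the 9 arrays on a log axis, for the 90 potassium channel genes (points), with the running median (line) and the 10th to 90th percentile (grey) of all genes. In ketamine minus saline and ketamine minus sleep deprivation the line lies above zero for dim and below zero for bright genes, and most points lie inside the grey band.

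**Figure D4:**
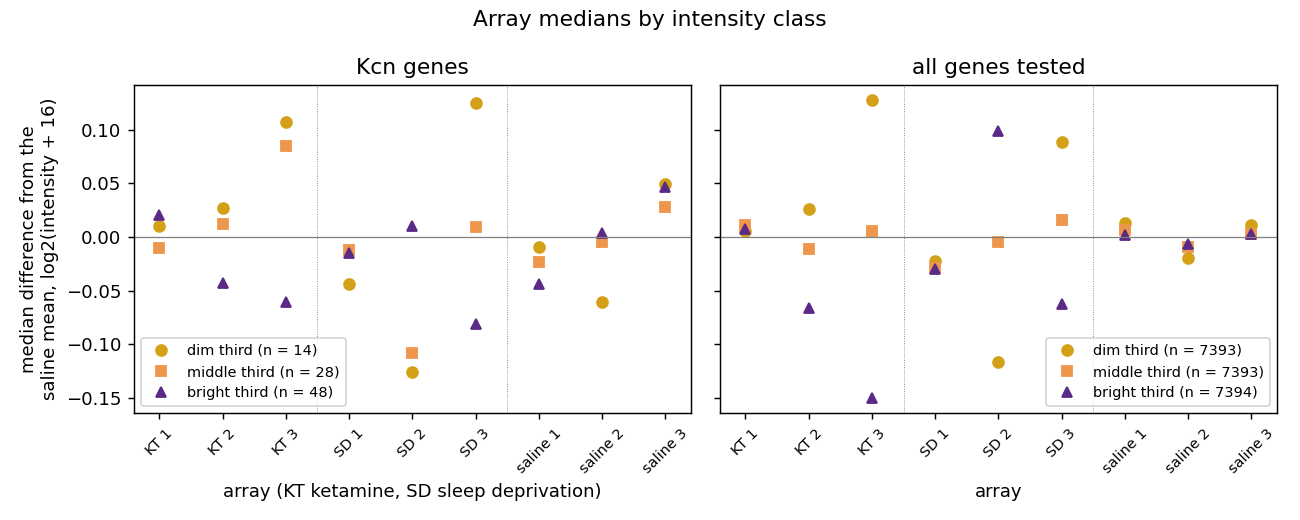
Median difference of each array from the mean of the saline arrays on the log2(intensity + 16) scale, for the potassium channel genes (left) and for all genes (right), by class of mean intensity (n in the legend). KT 3 and SD 2 deviate in opposite directions in all genes, with the dim class at 0.128 and −0.116 and the bright class at −0.150 and 0.0988.

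Single arrays differed in this relation. Over all genes, KT array 3 had a median difference from the saline mean of 0.128 in the dim class and of −0.150 in the bright class. KT array 2 was at 0.026 and −0.066, and KT array 1, at 0.006 and 0.008, lacked the relation. SD array 2 ran opposite to KT array 3, at −0.116 in the dim and 0.0988 in the bright class, and SD array 3 was at 0.0882 and −0.0621. The KT and the SD group thus each held arrays of unlike shape, and the part of this shape in the counts of higher and lower genes was not tested beyond the quantile normalization given beside them.

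Promoter windows of RefSeq (GRCm38.p6), from 250 bases before to 50 bases after a start, were found for 70 of the 90 genes. Motifs were searched on both strands in all windows of a gene: the E-box CACGTG bound by clock proteins, the AP-1 motif TGAGTCA of Fos and Jun, the cyclic AMP response element TGACGTCA, the GC box GGGCGG and the TATA motif TATAAA. The E-box was present in 6 genes (Kcnab1, Kcne4, Kcnh4, Kcnj2, Kcnk5 and Kcnn4), or 8.57% against 8.09% of 27025 genes. The AP-1 motif was present in Kcnip3 and Kcnk2, or 2.86% against 5.95%, and the cyclic AMP response element in 0 of 70, against 2.03%. The GC box was present in 61.4% of the 70 potassium channel genes against 38.2% of the 27025 genes, and the TATA motif in Kcnab1, Kcnj15, Kcnj16 and Kcnj9, or 5.71% against 15.7%. These are matches of letters within this window only. The 27025 were all genes with a window, whether or not they were tested here or code for protein. They were not matched to the 70 genes, which had 95 windows, for the number of windows per gene.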

How the data were processed

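Arrays from Affymetrix were run on total RNA of the anterior cingulate cortex, 9 in all and 3 per group. Sample titles describe the replicates as biological, without saying how many mice each holds. The authors' software was Affymetrix Expression Console 1.1.1 with PLIER 2.0 (per the submitters' processing notes), and the deposited values are linear intensities per probe set. How background was corrected, how arrays were normalized and which genome build was used are not given in those notes as held here. The running numbers in the labels' descriptions follow the groups and no label says whether they give an order of hybridisation.

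Of the probe sets, 23521 had 1 gene symbol in the platform annotation, 1814 several and 16010 none; 23328 of the first matched RefSeq by gene identifier. Of several probe sets per gene (1082 genes) the brightest was used. A further 4 probe sets that name a Kcn gene together with another gene were left out. limma 3.58.1 in R 4.3.3 was run on log2(intensity + 16) with all 9 arrays and 22180 genes in 1 fit (6 residual degrees of freedom), with Benjamini-Hochberg adjustment over all genes at 0.05. The procedure was tested on simulated data with independent noise for each gene and planted changes larger than any Kcn difference given here. That test therefore does not show how often changes of the size given here would be found. The number of arrays limits the precision: differences had a median standard error of 0.109.

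The members, gene lists and tests were chosen with earlier results of these data known. Genes were named by rule: the 10 smallest unadjusted p among the members in each comparison, the 3 brightest of each subfamily and the members of short lists. Other members were named after their values were seen, where groups did not overlap or an interval was wide. Some marker and pump genes were not analysed here.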

Additional observations from a re-analysis of the deposited data

How the results depend on the processing

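In 18 alternatives to the fit, no Kcn gene passed the adjusted threshold, except Kcnh5 in ketamine against saline with array weights (1 gene). With array weights the Kcn genes at an unadjusted limma p under 0.05 numbered 17 in ketamine against saline and 16 in ketamine against sleep deprivation, and all genes past the adjusted threshold numbered 1439 and 42. The mean of all probe sets gave 1 Kcn gene at unadjusted p in ketamine against saline. Quantile normalization gave 9 Kcn genes without overlap in ketamine against saline, and Kcn medians of 0.038 there and 0.041 in ketamine against sleep deprivation. Over all genes, sleep deprivation against saline had 1 call with centred arrays and 3 with limma-trend. Ketamine against sleep deprivation had 14 with the offset of 64, 5 without the dimmest genes and 15 with limma-trend. The cause of these moves was not tested. Leaving out 1 array gave 0 Kcn genes past the adjusted threshold throughout. At unadjusted p it gave 0 to 6 Kcn genes in ketamine against saline, 2 to 11 in sleep deprivation against saline and 2 to 19 in ketamine against sleep deprivation. Kcn genes without overlap ranged over 4 to 23, 11 to 27 and 12 to 32, since groups of 2 arrays separate more easily. Kcn medians ranged from −0.013 to 0.012, from −0.054 (without saline array 1) to 0.0032 and from −0.026 (without SD array 3) to 0.026 (without KT array 3). Over all genes the adjusted calls were 0 in ketamine against saline, 0 to 4 in sleep deprivation against saline and 0 to 214 (without SD array 3) in ketamine against sleep deprivation. Of 30 differences of leading Kcn genes, 30 kept their direction in every alternative run for them. The alternatives numbered 17 for 5 of these differences and 18 for the rest. The 30 were chosen for the smallest unadjusted limma p in the same data. A kept direction was therefore likely from the start and is no independent check. Of 1020 recomputed subfamily medians, 24 moved beyond the spread between arrays. Both counts include alternatives that cannot change a difference, such as leaving out an array of the group not compared. Arrays of the same replicate number correlated from −0.20 to 0.44 in their deviations from group means, and arrays of different numbers from −0.51 to 0.54. With 3 arrays per group these values cannot tell whether the numbers pair the samples. A fit with the replicate number as a block gave 0 adjusted calls and 3 Kcn genes at unadjusted p in ketamine against saline.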
